A study of Mus musculus with 12 samples.

Results

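The comparison set 4 medulloblastomas (MBs) from Ptch+/- mice against 4 samples of granule neuron progenitors (GNPs) from wild-type (WT) mice, on microarrays. These are 8 of the 12 arrays of the series, chosen by the genotype and cell type in the sample labels, so that no measured value decided which array entered which group. The other 4 arrays hold MBs of NdpKO;Ptch+/- mice, which also lack Ndp, the gene for the secreted ligand Norrin. Each gene was read from the brightest of its probes over the 12 arrays, on the log2 signal scale. Of 19057 genes with such a probe, 9528 reached a log2 signal of 4.5, taken as the limit of background, on at least 1 of the 8 arrays and were tested. The other 9529 stayed under that limit on all 8.

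Ptch+/- mice carry a disrupted allele of Ptch1 in every cell, so the vessels and immune cells of a tumor carry it too. Their MBs were dissected tumors, which the paper calls established, and the labels give no age. The WT GNPs came from cerebella at postnatal day (P) 6 and were enriched on a percoll gradient and by pre-plating before lysis. Both groups are labelled C57Bl/6, and the NdpKO;Ptch+/- MBs are labelled mixed. Genotype, age, transformation and the step from intact tissue to a purified suspension change together between the groups and cannot be told apart. Between the tumor genotypes the strain label changes with the loss of Ndp, so these cannot be told apart either. The labels do not state that each sample came from a different mouse, though the sample titles carry different identifiers. The paper counts animals per group for its arrays of P6 GNPs, WT among them, and gives no such count for the tumor arrays. P-values measure only the spread between these samples, and for the tumors it is not stated that this is spread between mice.

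GNPs give rise to the granule neurons of the cerebellum. They divide in the external granule layer under the mitogen Sonic hedgehog (Shh), which Purkinje cells secrete, then leave the cycle, extend axons and migrate inward. Patched1, the product of Ptch1, is the receptor for Shh and keeps the membrane protein Smoothened inactive until Shh binds. When Patched1 is lost, Smoothened acts without ligand, the Gli transcription factors switch on targets such as D-type cyclins, and GNPs that go on dividing can form MB of the Shh class.

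On each of the 8 arrays 31.9% to 32.4% of probes were at or above the limit. Quantile normalization of the deposited values makes this share nearly equal, so it cannot show that the arrays were technically alike. Pearson's r across probes, which are not independent replicates, was 0.984 to 0.991 among Ptch+/- MBs and 0.993 to 0.996 among GNPs. Ptch1 itself read 10.59, 8.66, 9.70 and 9.35 in MBs and 9.89, 9.76, 9.44 and 9.32 in GNPs. The groups overlapped for this gene, and since the place of the probe relative to the disrupted exons is not given in the sources used here, it checks no genotype. Of the GNP markers, Zic1 was bright in both groups (13.71 to 14.12 in MBs, 13.92 to 14.32 in GNPs), as was Barhl1 (11.25 to 11.91 and 11.03 to 11.13). Pax6 was dim (4.15 to 4.71 and 5.49 to 6.69), and Atoh1 was under the limit on all 8 arrays. The Y-linked gene Eif2s3y read 4.21 in Ptch+/- MB replicate 1 and 9.96 to 10.31 on the other 7 arrays.

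In limma's test 1794 genes (18.8% of those tested) rose and 1738 (18.2%) fell in Ptch+/- MBs at an adjusted p under 0.05. By over 1 log2 unit, 779 rose and 739 fell. Without Ptch+/- MB replicate 1, which Eif2s3y set apart, 1641 rose and 1503 fell. The median difference over all genes tested was -0.00187 log2 units. The deposited values were quantile-normalized, which sets all arrays to the same distribution, so this value near 0 says nothing of the balance between rises and falls. With the arrays centred on 6 housekeeping genes, 2112 rose and 1488 fell. Before centring, 1 of these 6 genes rose and 2 fell themselves, so they are not a fixed reference. A further view is which genes were seen in only one group. Above the limit in all 4 MBs and under it in all 4 GNP samples were 180 genes, and 202 had the opposite pattern. For these the fold is a lower bound, in which the dim group is set at the limit, and a difference is not exact where any array of a group was under the limit. All rises and falls are in RNA of bulk samples, where fewer cells of a type and less RNA per cell cannot be told apart.

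**Figure D1:**
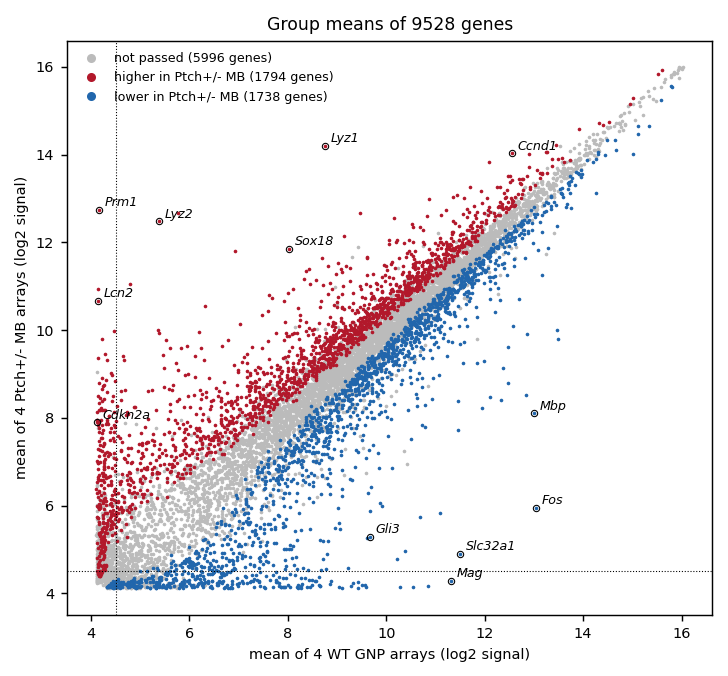
Each point is 1 of the 9528 genes tested, at its mean log2 signal over 4 WT GNP arrays (x axis) and 4 Ptch+/- MB arrays (y axis), with dotted lines at the limit of 4.5. The 1794 genes that rose and the 1738 that fell in MBs lie on either side of the diagonal.

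The lists of genes differed in how many members rose or fell. The share that rose was 15 of 19 for microglia, 10 of 14 for hedgehog signalling and its targets, 5 of 7 for MHC class II, 16 of 39 for DNA replication and 11 of 28 for cyclins and their kinases. The share that fell was 16 of 19 for immediate early genes, 15 of 20 for cholesterol and lipid synthesis, 8 of 14 for oligodendrocytes and 7 of 13 for cerebellar neurons other than granule cells. These counts are set beside 18.8% and 18.2% of all genes as a description, since no list was tested as a set. The lists were also chosen with earlier results of these data known. Lists can share members, and Ccnd1 counts in both the hedgehog and the cyclin list.

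**Figure D2:**
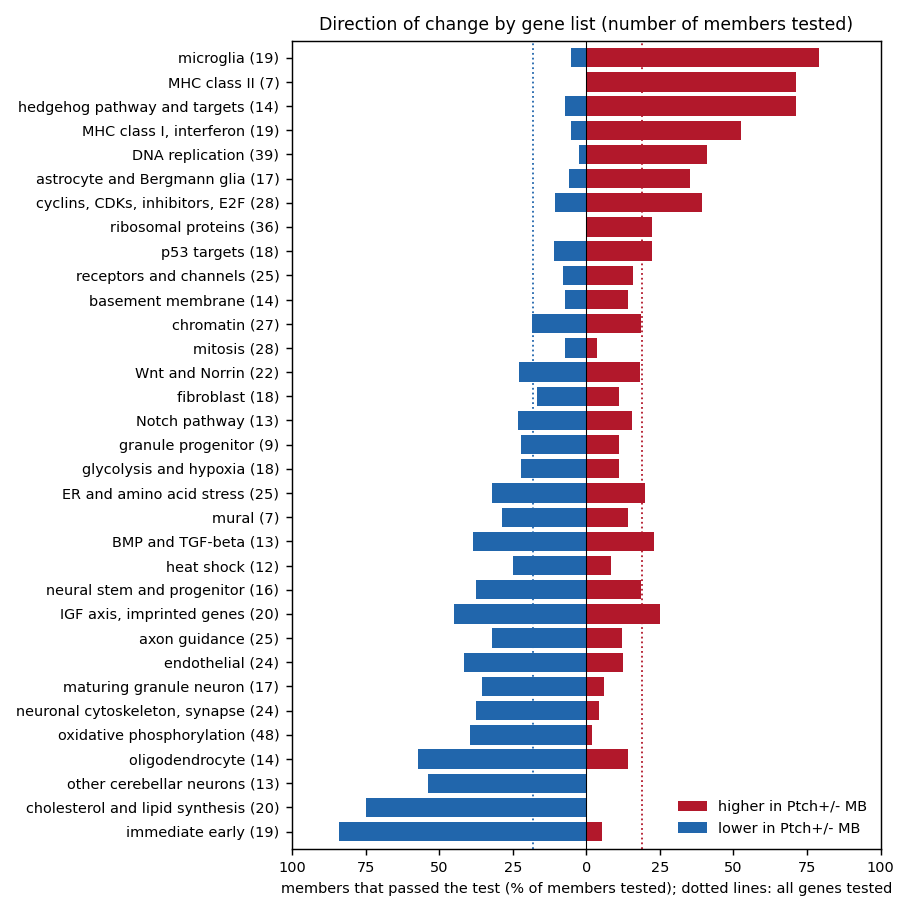
For each gene list with at least 7 members tested, the bars give the percentage of its tested members that rose or fell in Ptch+/- MBs against WT GNPs at an adjusted p under 0.05, with dotted lines at 18.8% and 18.2%, the shares over all genes tested. Microglia genes (15 of 19) reach farthest among the rises and immediate early genes (16 of 19) among the falls.

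Genes of hedgehog signalling were mostly higher in the tumors. Of 26 listed, 25 were matched to a probe and 14 were tested, of which 10 rose and 1 fell, with a median difference of 1.12 log2 units. All 11 calls held with each of the 8 arrays left out in turn. Under the limit on all 8 arrays were the target and activator Gli1, the targets Mycn and Atoh1, and the co-receptors Boc, Cdon and Gas1. The regulators Kif7 and Gpr161 and the ligands Shh, Ihh and Dhh were under it too. A reading under the limit does not show absent RNA, since the paper reports Gli1, Mycn and Atoh1 in Ptch+/- MBs by in situ hybridization. Smo, the gene for Smoothened, read 9.54, 9.61, 9.70 and 9.54 in MBs and 8.90, 9.03, 8.84 and 8.60 in GNPs. Every MB lay above every GNP sample, and Smo rose by 0.75 (SE 0.12, adjusted p = 0.00256). Sufu, a cytoplasmic inhibitor that binds Gli proteins, read 8.66, 9.40, 9.25 and 8.64 in MBs and 7.27, 6.79, 7.60 and 7.28 in GNPs. It also rose without overlap, by 1.75 (SE 0.25, adjusted p = 0.00104), so an inhibitor of the pathway was higher along with its transducer.

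The Gli factors went in opposite directions. Gli2, the main activator, read 12.27, 11.92, 12.43 and 12.18 in MBs and 11.57, 11.51, 11.13 and 11.16 in GNPs, and it rose by 0.85 (SE 0.19, adjusted p = 0.0137). A second, dimmer Gli2 probe did not pass, with a difference of -0.12 log2 units. Gli3, which acts mainly as a repressor, read 4.19, 6.39, 4.17 and 6.37 in MBs and 9.77, 9.96, 9.38 and 9.58 in GNPs. Tumors 1 and 3 were under the limit and tumors 2 and 4 above it, so its fitted difference of -4.40 (SE 0.57, adjusted p = 0.000682) is not exact. Gli3 had a mean of 8.68 in NdpKO;Ptch+/- MBs and differed between the tumor genotypes (adjusted p = 0.0244), as 3.95% of the tested genes did in either direction.

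Targets and ciliary genes rose too. Sfrp1, a secreted Wnt antagonist and marker of Shh-class MB, read 14.04, 13.78, 13.84 and 13.65 in MBs and 12.10, 12.02, 12.03 and 12.19 in GNPs. Both groups were tight and far apart, and Sfrp1 rose by 1.74 (SE 0.10, adjusted p = 4.26e-06). Bcl2, which protects cells from apoptosis, rose by 1.46, Evc and Evc2, whose products act with Smoothened at the cilium, by 1.39 and 1.40, and Foxm1, a transcription factor of the late cell cycle, by 0.70. Hhip, a decoy receptor and target, was under the limit in all GNP samples and in tumors 1 and 2, read 7.65 and 6.59 in tumors 3 and 4, and did not pass (adjusted p = 0.257). Ptch1, a target as well as the receptor, did not pass either (SE 0.48, adjusted p = 0.984), nor did Spop.

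**Figure D3:**
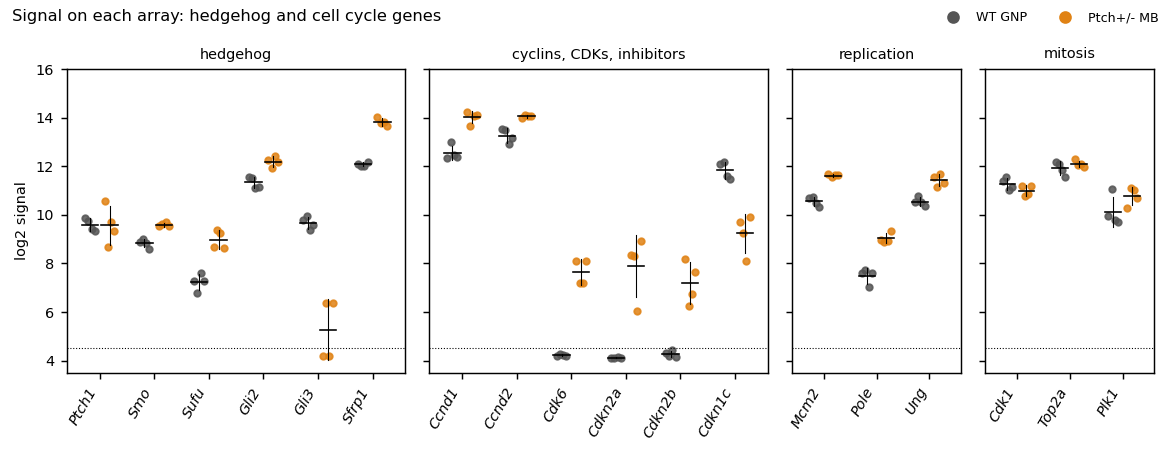
Log2 signal of hedgehog and cell cycle genes on each array, 4 WT GNP and 4 Ptch+/- MB, as points; bars and lines give mean and SD (n = 4), and the dots across mark the limit of 4.5. Sfrp1 and Ccnd1 are higher in every MB than in any GNP sample, and Cdk6 and Cdkn2a are above the limit in MBs alone.

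The D-type cyclins and Cdk6 rose, as did several inhibitors, while most mitosis genes did not pass. Of 28 cyclins, kinases, inhibitors and E2F factors tested, 11 rose, 3 fell and 14 did not pass. Ccnd1, a D-type cyclin, read 14.24, 13.68, 14.08 and 14.12 in MBs and 12.36, 12.99, 12.45 and 12.40 in GNPs. GNP replicate 2 was the highest of its group and still below every MB, and Ccnd1 rose by 1.48 (SE 0.18, adjusted p = 0.000414). Ccnd2 and Ccnd3, the other D-type cyclins, rose by 0.79 and 0.65. Their kinase partner Cdk6 read 8.11, 7.19, 7.21 and 8.11 in MBs and 4.18, 4.27, 4.25 and 4.18 in GNPs, at least 8.92-fold higher in MBs (adjusted p = 9.61e-06). Cdk4, the alternative partner, overlapped and differed by -0.04 (SE 0.11, adjusted p = 0.873).

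Inhibitors of these kinases changed in both directions. Cdkn2a, which encodes p16Ink4a and p19Arf, read 8.35, 8.29, 6.03 and 8.92 in MBs and 4.12, 4.12, 4.13 and 4.12 in GNPs. All GNP samples were under the limit and tumor 3 was the lowest MB, and the gene was at least 10.5-fold higher (adjusted p = 0.00106). Its neighbour Cdkn2b read 8.18, 6.25, 6.72 and 7.66 in MBs and 4.32, 4.21, 4.42 and 4.15 in GNPs, at least 6.50-fold higher (adjusted p = 0.00149). In NdpKO;Ptch+/- MBs the means were 4.58 for Cdkn2a and 4.81 for Cdkn2b, and both differed between the tumor genotypes (adjusted p = 0.0192 and adjusted p = 0.0336). Cdkn2c, the inhibitor p18Ink4c, rose by 0.69, while 2 other probes of it did not pass (differences 0.25 and -0.21). Cdkn1c, the imprinted inhibitor p57Kip2, read 9.70, 9.24, 8.12 and 9.91 in MBs and 12.12, 12.18, 11.62 and 11.48 in GNPs, and it fell by 2.61 (SE 0.36, adjusted p = 0.000964). The falls of Cdc25b, a phosphatase that activates these kinases, and of the transcription factor E2f3 were lost with 5 and 7 of the 8 arrays left out (adjusted p up to 0.0759 and 0.123).

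Some of the DNA replication genes rose, by small amounts. Of 39 tested, 16 rose, 1 fell and 22 did not pass, with a median difference of 0.29, and 13 of the 16 held with each array left out. Pole, the catalytic subunit of the leading-strand polymerase, read 8.97, 8.89, 8.94 and 9.34 in MBs and 7.61, 7.74, 7.02 and 7.61 in GNPs and rose by 1.54 (SE 0.18, adjusted p = 0.000414). Mcm2, a subunit of the replicative helicase, read 11.67, 11.55, 11.63 and 11.64 in MBs and 10.68, 10.72, 10.50 and 10.34 in GNPs and rose by 1.06 (SE 0.09, adjusted p = 6.08e-05). In both genes the MBs were close together and above all GNP samples. The gene that fell was Tyms, thymidylate synthase (difference -0.57), a call lost with 6 of the arrays left out (adjusted p up to 0.0804). Of 32 replication genes with a promoter window in the RefSeq table, 6 held the E2F-type motif TTTCCCGC on either strand (18.8%), as did 1.24% of all 27025 promoters. Among tested genes it was in 3.0% of promoters of those that rose, 1.45% of those that fell and 2.58% of those that did not pass.

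Of 28 mitosis genes tested, 1 rose and 2 fell, both below the shares over all genes, with a median difference of -0.02. Anln, needed for cytokinesis, rose by 0.76 (SE 0.14, adjusted p = 0.00458), and Cdca8, a subunit of the chromosomal passenger complex, fell by 0.62 (SE 0.11, adjusted p = 0.00447). The fall of Cdc25c, an activator of Cdk1, was lost with 4 arrays left out (adjusted p up to 0.0846). The mitotic kinase Cdk1 read 10.79 to 11.19 in MBs and 11.02 to 11.57 in GNPs, and Top2a, which untangles replicated DNA, 11.99 to 12.29 and 11.55 to 12.18, so the groups overlapped, but a dimmer Top2a probe was higher in MBs (difference 1.11, adjusted p = 0.00193). The motif TTTGAA of cell cycle promoters was in 19 of 23 mitosis gene promoters (82.6%) and in 20.2% of all. Among tested genes it was in 14.1% of promoters of those that rose, 12.4% of those that fell and 14.5% of those that did not pass.

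Factors of granule cell identity mostly did not pass at their brightest probe. Of 9 progenitor genes tested, 1 rose (11.1%) and 2 fell (22.2%), beside 18.8% and 18.2% over all genes. Zic1, Zic2, Zic4, Meis1, Insm1 and En1 did not pass. However, 2 other probes of Meis1, a homeobox factor, were higher in MBs (9.97 against 8.27, adjusted p = 0.000218, and 6.16 against 4.19, adjusted p = 0.00226), and another Zic4 probe was lower (difference -0.48, adjusted p = 0.0336). Pax6 was under the limit in 3 of 4 MBs and above it in all GNP samples (adjusted p = 0.00738). En2, a patterning factor of the cerebellum, fell by 0.68 (SE 0.11, adjusted p = 0.00281). Barhl1 rose by 0.55, a call lost without Ptch+/- MB replicate 1 and without WT GNP replicates 2 and 4 (adjusted p up to 0.0539). En1, the partner of En2, read 6.79, 7.03, 4.17 and 10.96 in MBs and 10.21 to 10.66 in GNPs. Tumor 4 was above the GNPs and the others far below, and En1 did not pass (adjusted p = 0.139).

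Of 17 genes of maturing granule neurons 6 fell and 1 rose, with a median difference of 0.00. Neurod2, a helix-loop-helix factor of differentiating neurons, read 8.89, 9.35, 9.32 and 5.38 in MBs and 11.93, 11.80, 11.99 and 12.02 in GNPs. All MBs were below the GNPs and tumor 4 far below the rest, and Neurod2 fell by 3.70 (SE 0.84, adjusted p = 0.0135). Its relative Neurod1 fell by 1.22, Cbln1, a synaptic organizer released by granule neurons, by 0.85, and the adhesion molecule Cntn1 by 0.81. Kcnd2, a potassium channel, read 7.42, 8.15, 8.46 and 7.35 in MBs and 10.57, 10.66, 10.66 and 11.00 in GNPs and fell by 2.88 (SE 0.27, adjusted p = 9.02e-05). Unc5c, a netrin receptor, read 7.06, 9.49, 9.77 and 4.54 in MBs and 11.15 to 11.64 in GNPs, and its call was lost with 5 arrays left out (adjusted p up to 0.0831). Another, dimmer Unc5c probe was under the limit on average in MBs (4.16 against 6.88) and was lower there too (adjusted p = 3.23e-09). Nfia, a factor of granule neuron maturation, rose by 1.35 (SE 0.20, adjusted p = 0.00135).

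Of 24 genes of the neuronal cytoskeleton and synapse, 9 fell and 1 rose, with a median difference of -0.62, and 5 of the 9 held with each array left out. Syt1, the calcium sensor of transmitter release, read 9.38, 9.85, 9.54 and 8.37 in MBs and 12.08, 12.04, 11.94 and 11.88 in GNPs and fell by 2.70 (SE 0.32, adjusted p = 0.000373). Nefm, a neurofilament subunit, read 4.40, 4.17, 4.53 and 4.13 in MBs and 8.33, 8.90, 8.42 and 8.05 in GNPs, with 3 MBs under the limit (adjusted p = 1.26e-05). Map2, a protein of dendritic microtubules, rose by 0.53 (SE 0.10, adjusted p = 0.00411). Over the tumors, 19 of the 24 genes were lowest in tumor 4 and 17 were highest in tumor 2, while among 7890 genes above the limit in all tumors 27.9% were lowest in tumor 4 and 25.7% highest in tumor 2.

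A part of the genes of other cerebellar neurons, those of GABAergic cells among them, fell in MBs. Of 13 tested, 7 fell and 0 rose in limma, and 0 rose at an unadjusted p under 0.05, with 5 of the 7 holding with each array left out. The other 6 did not pass. Slc32a1, which loads GABA into vesicles, read 5.08, 4.28, 4.15 and 6.10 in MBs and 11.52, 11.59, 11.47 and 11.42 in GNPs. Tumors 2 and 3 were under the limit (adjusted p = 3.68e-05). Gad1, an enzyme that makes GABA, read 6.61, 4.34, 4.59 and 7.38 in MBs and 10.66, 11.00, 10.42 and 10.62 in GNPs (adjusted p = 0.00258). Gad2, the second such enzyme, and Eomes, a factor of unipolar brush cells, were under the limit in all MBs, at least 10.8-fold and 10.8-fold lower. Lhx5, a factor of GABAergic precursors, was at least 24.2-fold lower (adjusted p = 1.29e-13). Among the 12 brightest genes seen in GNP samples alone were Ptf1a, which commits precursors to the GABAergic fate, Tfap2a and Tfap2b. Ptf1a read 9.35 to 9.55 in GNPs, Tfap2a 8.88 to 9.18 and Tfap2b 10.64 to 11.03, and they were at least 30.5-fold, 23.3-fold and 81.1-fold lower. The Purkinje cell gene Pcp2 fell, a call lost with 5 arrays left out (adjusted p up to 0.0633), and Reln, the gene for the migration signal Reelin, was bright in both groups and did not pass.

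Several myelin genes were low in MBs and high in GNP samples. Of 14 oligodendrocyte genes tested, 8 fell and 2 rose, with a median difference of -2.55. Mag, a myelin adhesion protein, read 4.22, 4.22, 4.24 and 4.46 in MBs and 10.42, 11.50, 11.80 and 11.58 in GNPs. Every MB was under the limit, GNP replicate 1 was the lowest of its group, and Mag was at least 113-fold lower (adjusted p = 1.37e-06). Mbp, myelin basic protein, read 8.12, 7.65, 7.94 and 8.68 in MBs and 12.38, 13.15, 13.31 and 13.18 in GNPs and fell by 4.91 (SE 0.35, adjusted p = 1.5e-05). Another Mbp probe did not pass, with group means of 10.13 in MBs and 9.55 in GNPs. Mobp, another myelin protein, was at least 14.8-fold lower, and Cldn11, which seals the layers of myelin, fell by 2.94 (SE 0.19, adjusted p = 7.65e-06). Enpp6, of newly forming oligodendrocytes, was at least 65.7-fold lower (adjusted p = 7.62e-10). Genes of earlier stages did not follow: Olig1, a lineage factor, rose by 1.57 (SE 0.27, adjusted p = 0.00350), and Sox10 and Bcas1 did not pass. The falls of Mog and Gpr17 were lost with 7 and 5 arrays left out (adjusted p up to 0.0776 and 0.117).

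Of 17 genes of astrocytes and Bergmann glia, 6 rose and 1 fell, with a median difference of -0.06. Gfap, the filament of astrocytes, read 10.55, 10.40, 10.74 and 11.64 in MBs and 8.80, 9.03, 8.59 and 8.81 in GNPs. Tumor 4 was highest and all MBs were above the GNPs, with a rise of 2.02 (SE 0.25, adjusted p = 0.000529). The glutamate transporter Slc1a2 and the metal-binding Mt3 rose by 1.46 and 1.87, whereas Gja1, connexin 43 of astrocytes, fell by 1.30 (SE 0.27, adjusted p = 0.00817). Aqp4, the water channel of astrocyte endfeet, overlapped (9.80 to 11.64 and 10.22 to 11.03). The rises of Slc1a3 and Sox9 were lost with 4 and 3 arrays left out (adjusted p up to 0.0690 and 0.0563). In 13 of the 17 genes tumor 4 was the highest MB.

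Microglia genes rose more often than those of any other list with at least 7 members tested. Of 25 listed, 23 were matched to a probe and 19 were tested, of which 15 rose and 1 fell, with a median difference of 2.69, and 14 of the 15 held with each array left out. Summed on the linear scale, their signal was 17428 to 32356 in MBs and 3167 to 4655 in GNPs. Aif1, the calcium-binding protein IBA1, read 8.52, 9.64, 9.22 and 9.88 in MBs and 5.06, 4.43, 4.49 and 4.67 in GNPs and rose by 4.65 (SE 0.28, adjusted p = 5.48e-06), a value that is not exact with 2 of 4 GNP samples under the limit. C1qa, a chain of complement C1q, read 7.56, 8.77, 8.30 and 9.13 in MBs and 4.22, 4.29, 4.28 and 4.21 in GNPs, at least 15.3-fold higher (adjusted p = 2.86e-05). Tyrobp, an adaptor of microglial receptors, rose by 3.68 (3 of 4 GNP samples under the limit), its partner receptor Trem2 by 3.39 and the fractalkine receptor Cx3cr1 by 2.52. Lyz2, lysozyme of myeloid cells, read 12.18, 12.63, 12.53 and 12.57 in MBs and 6.06, 4.40, 5.30 and 5.76 in GNPs and rose by 7.10 (SE 0.32, adjusted p = 6.55e-07), but Lyz1 is a near-identical copy whose probe may share its signal. The 1 fall was Cd14, a lipopolysaccharide co-receptor, lost with 5 arrays left out (adjusted p up to 0.104). Csf1r, the growth factor receptor of these cells, did not pass (adjusted p = 0.0627), P2ry12 was near the limit, and Itgam, Tmem119, Ptprc and Spi1 were under it on all 8 arrays.

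**Figure D4:**
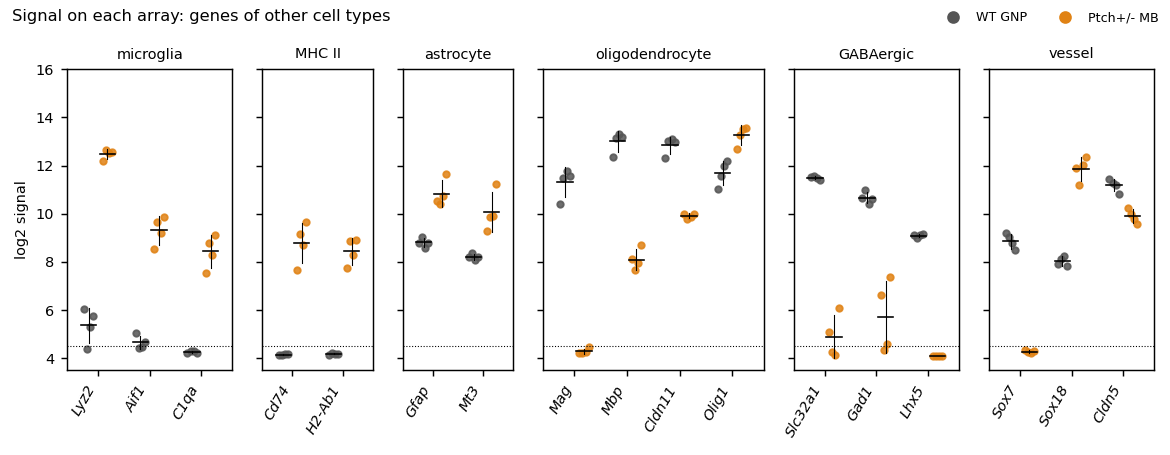
Log2 signal of cell type genes on each array, 4 WT GNP and 4 Ptch+/- MB, as points; bars and lines give mean and SD (n = 4), and the dots across mark the limit of 4.5. Aif1 and C1qa are higher in every MB than in any GNP sample, and Mag and Mbp are lower.

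Most genes of antigen presentation rose. Of 7 MHC class II genes tested, 5 rose, and 4 of these held with each array left out. Cd74, the invariant chain, read 7.66, 9.15, 8.70 and 9.65 in MBs and 4.14, 4.15, 4.16 and 4.16 in GNPs. All MBs were above the limit and all GNP samples under it, at least 19.5-fold higher in MBs (adjusted p = 1.87e-05). H2-Ab1 and H2-Eb1, which encode class II chains, read 7.73 to 8.92 and 6.99 to 8.48 in MBs and were under the limit in all GNP samples, and H2-DMa, which loads peptide, was at least 5.62-fold higher. H2-Aa rose too, a call lost without MB replicate 2 (adjusted p of 0.0510), and H2 probes may share signal between near-identical genes. Some class II genes differed between tumor genotypes, with Cd74 at 4.26 and H2-Ab1 at 4.23 on average in NdpKO;Ptch+/- MBs (adjusted p = 0.000495 and adjusted p = 7.11e-05), while the microglia gene Aif1 had a mean of 8.97 there. The class II genes moved with the microglia list over the tumors, with 6 of 7 class II genes and 17 of 19 microglia genes lowest in tumor 1, and the part of cell number in their rise was not tested.

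Of 19 class I and interferon response genes, 10 rose and 1 fell, with a median difference of 1.19. B2m, the light chain of class I, read 12.46, 12.79, 12.34 and 12.99 in MBs and 11.79, 11.54, 11.43 and 11.44 in GNPs and rose by 1.09 (SE 0.14, adjusted p = 0.000595). Psmb8, an immunoproteasome subunit, and Ifitm3, an antiviral membrane protein, rose by 3.20 and 2.30, of which the first is not exact since 3 of 4 GNP samples were under the limit. Ifit3, a classical interferon target, read 7.33, 9.01, 6.15 and 7.07 in MBs and 4.19, 4.16, 4.18 and 4.17 in GNPs, at least 7.41-fold higher (adjusted p = 0.00373). Tumor 2 was highest for Ifit3 and for 13 of the 19 genes. Irf1, an interferon-induced factor, fell by 0.67 (SE 0.12, adjusted p = 0.00421). None of the 9 lymphocyte genes with a probe, the T cell gene Cd3e included, reached the limit on any of the 8 arrays.

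Vessel genes were mixed and leaned lower. Of 24 endothelial genes tested, 10 fell and 3 rose, with a median difference of -0.63, and 7 of the 10 falls held with each array left out. Cldn5, a tight junction protein of the blood brain barrier, read 9.58 to 10.25 in MBs and 10.84 to 11.44 in GNPs, with no overlap, and fell by 1.27 (SE 0.17, adjusted p = 0.000925). Cdh5, the endothelial cadherin, read 5.16, 4.31, 4.27 and 4.25 in MBs and 7.02, 6.27, 6.22 and 5.45 in GNPs, with 3 of 4 MBs under the limit (adjusted p = 0.0104). A pair of transcription factors of the same family went opposite ways. Sox7 read 4.34, 4.25, 4.21 and 4.30 in MBs and 9.18, 9.03, 8.77 and 8.48 in GNPs, at least 20.6-fold lower (adjusted p = 6.47e-06), and Sox18 read 11.88, 11.18, 12.02 and 12.35 in MBs and 7.91, 8.14, 8.26 and 7.81 in GNPs, a rise of 3.83 (SE 0.25, adjusted p = 8.68e-06). The calls of Pecam1, Tek and Vwf were lost with 5, 6 and 6 arrays left out (adjusted p up to 0.0729, 0.0703 and 0.0835). Kdr, Tie1, Sox17 and the Norrin receptor Fzd4 were under the limit on all 8 arrays. Of 14 basement membrane genes tested 2 rose (14.3%) and 1 fell (7.14%), fewer than the shares over all genes. The laminin chains Lama1 and Lama5 rose by 2.36 and 3.04 (2 of 4 GNP samples were under the limit for Lama5, so that value is not exact), while the basement membrane protein Nid2 was lower (4.23 to 5.41 against 6.82 to 7.94). Of 18 fibroblast genes tested 2 rose (11.1%) and 3 fell (16.7%). Mgp, a matrix protein that binds calcium, rose by 2.81 (SE 0.50, adjusted p = 0.00380). The falls were Slc6a13, a GABA transporter (4.24 to 6.21 in MBs and 8.45 to 9.04 in GNPs), Serpinf1, a secreted serpin (difference -1.38), and the collagen Col3a1, which was under the limit in all MBs. The calls of Serpinf1 and Col3a1 held with only 2 and 5 of the 8 arrays left out in turn (adjusted p in limma up to 0.0763 and 0.0580).

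Most immediate early genes, which cells induce within minutes of a stimulus, were far lower in MBs. Of 19 tested, 16 fell and 1 rose, with a median difference of -2.48, and 15 of the 16 held with each array left out. Fos, a subunit of the AP-1 factor, read 4.97, 5.50, 7.12 and 6.22 in MBs and 12.70, 12.91, 13.23 and 13.35 in GNPs. The highest MB was far below the lowest GNP sample, and Fos fell by 7.10 (SE 0.42, adjusted p = 4.55e-06). Its relative Fosb was under the limit in every MB and read 10.11 to 10.37 in GNPs, at least 54.6-fold lower (adjusted p = 4.83e-13). Egr1 read 9.66, 9.23, 10.61 and 9.68 in MBs and 13.22, 13.32, 13.67 and 13.71 in GNPs and fell by 3.68 (SE 0.35, adjusted p = 0.000102). The neuronal activity factor Npas4, the stress factor Atf3 and the zinc finger Klf4 were at least 34.2-fold, 17.9-fold and 11.6-fold lower. Jun, the partner of Fos, fell by 1.51, Dusp1, a phosphatase of MAP kinases, by 1.99, and the fall of Jund was lost with 7 arrays left out (adjusted p up to 0.0866). The 1 rise was Fosl2, of the Fos family (2.29, SE 0.35, adjusted p = 0.00180), and Egr2 and Egr3 did not pass. GNPs were dissociated and pre-plated and MBs were not, so handling and tissue cannot be told apart for these genes.

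Stress genes divided. Of 25 tested, 8 fell (32%) and 5 rose (20%, near the 18.8% over all genes). Atf4 and Ddit3, factors of the integrated stress response, fell by 1.41 and 2.36, and Herpud1 and Xbp1 of the unfolded protein response by 0.98 and 0.81. Asns, which makes asparagine and is a target of Atf4, read 13.03, 12.32, 13.48 and 13.51 in MBs and 11.51, 11.53, 11.40 and 11.34 in GNPs and rose by 1.64 (SE 0.25, adjusted p = 0.00176), and the serine synthesis enzyme Psat1 rose by 0.95. Tumor 2 was the lowest MB for 21 of the 24 of these genes that reached the limit in at least 1 tumor.

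Most genes of cholesterol synthesis were lower in MBs. Of 20 cholesterol and lipid genes tested, 15 fell and 0 rose in limma (Acly, which makes cytosolic acetyl-CoA, was the 1 gene higher at an unadjusted p under 0.05), with a median difference of -1.05, and 13 of the 15 held with each array left out. The promoters of 3 of the genes, which act at different steps, are shown as an example of what promoters of the list share. They run from 250 bases before to 50 bases after the start in RefSeq (GRCm38.p6), with CCAAT or its reverse complement ATTGG in capitals.
Cyp51: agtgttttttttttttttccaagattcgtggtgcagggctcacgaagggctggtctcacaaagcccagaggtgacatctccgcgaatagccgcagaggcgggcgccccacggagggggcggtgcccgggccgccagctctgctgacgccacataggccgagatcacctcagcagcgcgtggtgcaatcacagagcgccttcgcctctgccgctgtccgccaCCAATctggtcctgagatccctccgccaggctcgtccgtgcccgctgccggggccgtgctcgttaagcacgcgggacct
Idi1: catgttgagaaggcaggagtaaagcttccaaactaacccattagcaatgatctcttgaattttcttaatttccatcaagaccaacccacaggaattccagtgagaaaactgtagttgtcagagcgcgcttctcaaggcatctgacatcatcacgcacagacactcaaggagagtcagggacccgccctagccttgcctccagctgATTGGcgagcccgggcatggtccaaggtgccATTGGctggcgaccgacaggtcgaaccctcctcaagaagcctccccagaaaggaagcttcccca
Lss: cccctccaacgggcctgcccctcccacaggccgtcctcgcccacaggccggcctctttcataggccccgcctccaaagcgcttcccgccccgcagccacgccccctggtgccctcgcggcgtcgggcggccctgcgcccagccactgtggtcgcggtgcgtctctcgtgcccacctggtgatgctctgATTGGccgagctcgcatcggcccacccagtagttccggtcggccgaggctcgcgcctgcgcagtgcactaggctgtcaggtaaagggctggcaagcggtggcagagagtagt
The Cyp51 window is chr5:4104648-4104947 on the minus strand, that of Idi1 chr13:8885356-8885655 and that of Lss chr10:76531355-76531654, both on the plus strand. The match began 29 bases before the start in Cyp51, 45 and 14 bases before it in Idi1 and 62 bases before it in Lss. CCAAT on either strand was in 14 of the 15 promoters of the list that the table holds (93.3%) and in 41.1% of all promoters, 42.1% of those of genes that rose, 46.2% of those that fell and 43.4% of those that did not pass. The motif is not particular to this list, since it was also in 69.6% of mitosis and 59.4% of replication gene promoters. A match of letters is a description and shows no binding.

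Idi1, which isomerizes isopentenyl diphosphate early in the pathway, read 4.21, 4.21, 4.27 and 4.32 in MBs and 5.96, 6.59, 6.36 and 6.58 in GNPs, at least 3.66-fold lower (adjusted p = 0.00188). Lss, which closes the sterol rings, read 6.73, 7.36, 6.89 and 7.08 in MBs and 8.48, 8.18, 8.42 and 8.16 in GNPs and fell by 1.30 (SE 0.16, adjusted p = 0.000477). Cyp51, a demethylase of lanosterol, read 9.06, 8.77, 8.69 and 9.15 in MBs and 11.04, 10.75, 10.98 and 11.07 in GNPs and fell by 2.04 (SE 0.17, adjusted p = 5.01e-05). In all 3 the groups were apart. Msmo1, which acts later on the sterol, fell by 2.32 (SE 0.18, adjusted p = 2.61e-05), Sqle, an enzyme that limits the rate, by 1.19, Fdps by 0.96, and Srebf2, the factor that activates these genes, by 1.08 (SE 0.15, adjusted p = 0.00103). The brightest probe of Insig1, which retains the Srebf2 product, did not pass, but 2 other Insig1 probes were lower in MBs (7.07 against 10.50, adjusted p = 4.69e-06, and 6.27 against 10.21, adjusted p = 3.05e-06, group means in limma). Myelin genes were lower in the same tumors (Mag and Mbp above), and their part in the fall was not tested. The falls of Mvd and Ebp were lost with 1 and 7 arrays left out (adjusted p up to 0.0502 and 0.0916).

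**Figure D5:**
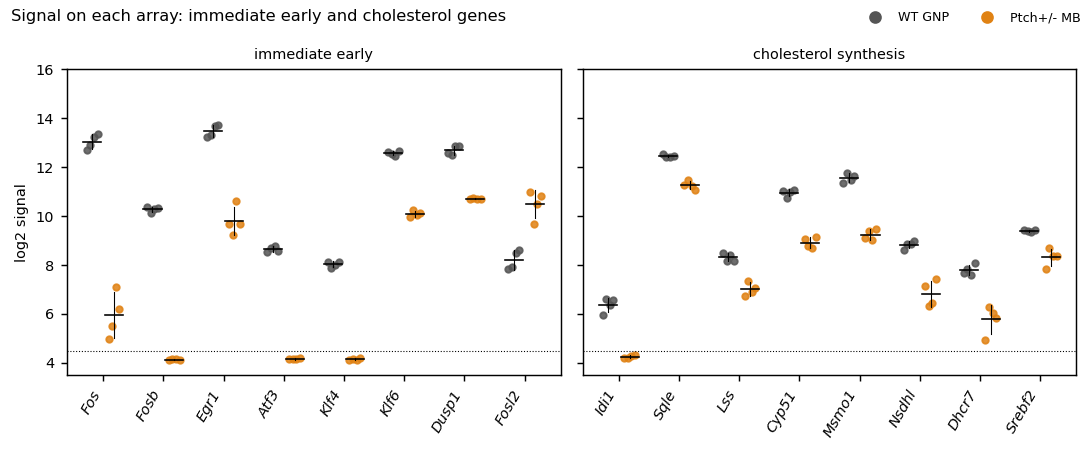
Log2 signal of immediate early genes and cholesterol synthesis genes on each array, 4 WT GNP and 4 Ptch+/- MB, as points; bars and lines give mean and SD (n = 4), and the dots across mark the limit of 4.5. Fos and Cyp51 are lower in every MB than in any GNP sample.

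The respiratory chain and ribosomal genes that passed differed by small amounts. Of 48 oxidative phosphorylation genes tested, 19 fell and 1 rose, with a median difference of -0.28, and 13 of the 19 held with each array left out. Ndufa10 of complex I read 12.28, 12.31, 12.32 and 12.33 in MBs and 12.67, 12.59, 12.52 and 12.65 in GNPs and fell by 0.30 (SE 0.04, adjusted p = 0.000612), and Cyc1, cytochrome c1, fell by 0.66. Of 36 ribosomal protein genes, 8 (22.2%, near the share over all genes) rose and 0 fell after adjustment in limma, with a median difference of 0.12, and 4 of the 8 held with each array left out. Rpl23, of the large subunit, read 15.95, 15.95, 15.94 and 15.85 in MBs and 15.66, 15.58, 15.66 and 15.53 in GNPs and rose by 0.31 (SE 0.04, adjusted p = 0.000976).

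Growth factor and imprinted genes fell more often than they rose. Of 20 tested, 9 fell and 5 rose, with a median difference of -0.79. Igf1, a growth factor, read 6.96, 7.26, 7.20 and 6.95 in MBs and 5.26, 4.19, 4.23 and 4.19 in GNPs and rose by 2.62 (SE 0.25, adjusted p = 0.000105), with 3 of 4 GNP samples under the limit, so the difference is not exact. The same holds for Igfbp3, which binds it and rose by 3.43. Igf2, the imprinted growth factor needed by Shh-driven MB, was bright in both groups, and its fall (-1.10) was lost with 5 arrays left out (adjusted p up to 0.0735). Ndn, the imprinted gene for necdin, read 9.41, 10.93, 10.11 and 9.54 in MBs and 13.51, 13.41, 13.48 and 13.46 in GNPs and fell by 3.46 (SE 0.29, adjusted p = 4.03e-05). Grb10, an imprinted inhibitor of insulin receptor signalling, read 5.95, 4.72, 4.28 and 4.88 in MBs and 10.92, 11.02, 10.05 and 9.52 in GNPs, and it had a mean of 8.66 in NdpKO;Ptch+/- MBs (adjusted p = 0.0162). Igf2bp3, which binds Igf2 mRNA, was at least 33.6-fold lower.

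In Wnt signalling 4 of 22 genes rose (18.2%) and 5 fell (22.7%), near the shares over all genes (18.8% and 18.2%). The receptors Fzd2 and Fzd7 rose by 1.85 and 2.03, as did the antagonist Sfrp2 (2.11), and a rise of Fzd10 was lost without WT GNP replicate 2 (adjusted p of 0.0505). The ligand Wnt5a read 4.37, 4.33, 4.29 and 4.37 in MBs and 8.65, 8.45, 7.93 and 8.04 in GNPs, at least 13.6-fold lower (adjusted p = 2.2e-07), the receptor Fzd5 was at least 4.34-fold lower, and Wnt7b, Tcf7l2 and Sp5 were the other falls. Axin2, a target of canonical signalling, overlapped (8.63 to 9.06 and 8.63 to 8.91). Of 13 BMP and TGF-beta genes 3 rose (23.1%) and 5 fell (38.5%). Among the falls was Bmp4, a ligand that opposes GNP division, which was under the limit in every MB and at least 13.0-fold lower (adjusted p = 7.72e-08). Hes6, a neuronal factor related to Notch targets, fell by 1.01 (SE 0.11, adjusted p = 0.000181), and Dtx1, a Notch regulator, rose by 1.86 (SE 0.24, adjusted p = 0.000722).

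Of 25 axon guidance genes 8 fell (32%) and 3 rose (12%), beside 18.2% and 18.8% over all genes. Dcc, the netrin receptor, read 9.08, 9.39, 8.65 and 8.48 in MBs and 4.28, 4.21, 4.24 and 4.17 in GNPs. It was above the limit in MBs alone, at least 21.1-fold higher (adjusted p = 5.03e-07), and Sema3e, a guidance cue, was at least 10.9-fold higher. The repellent Slit2 was at least 6.37-fold lower, and the ligands Efna5 and Efnb1 fell by 1.29 and 0.80. Cxcl12, the chemokine that holds GNPs near the meninges, read 8.31, 8.14, 7.94 and 6.94 in MBs and 9.47, 9.37, 9.85 and 9.56 in GNPs and fell by 1.73 (SE 0.41, adjusted p = 0.0174), and its receptor Cxcr4 did not pass. Of 16 neural stem cell genes 3 rose (18.75%, near the share over all genes) and 6 fell (37.5%). Nes, the filament nestin, was up by 2.98 (SE 0.52, adjusted p = 0.00369) and Sox2 was lower (4.38 to 5.95 against 7.17 to 7.51).

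Some of the largest changes fell outside these lists. Prm1, a protamine of sperm chromatin, read 12.02, 12.77, 13.16 and 13.01 in MBs and 4.15, 4.16, 4.14 and 4.17 in GNPs, at least 302-fold higher (adjusted p = 1.33e-08), with a mean of 12.39 in NdpKO;Ptch+/- MBs. Tecta, a matrix protein of the inner ear, read 11.63, 10.78, 9.54 and 11.78 in MBs and 4.14, 4.15, 4.13 and 4.13 in GNPs, at least 86.4-fold higher, and Lcn2, an iron-binding protein of inflammation, read 9.39, 10.82, 9.53 and 12.97 in MBs, at least 72.2-fold higher. In NdpKO;Ptch+/- MBs Tecta read 7.54, 4.41, 4.44 and 4.36, with 1 tumor above the limit, and Lcn2 had a mean of 4.17, and both differed between the tumor genotypes (adjusted p = 0.00816 and adjusted p = 0.00282). Among genes above the limit on all 8 arrays, Lyz1 rose most (5.44, SE 0.22, adjusted p = 3.35e-07), followed by Psg23, a pregnancy-specific glycoprotein (4.88), Cbln4, a synaptic organizer (4.23), and Zfhx3, a transcription factor (3.99). Ntrk3, the neurotrophin 3 receptor, and Etv5, an ETS factor, rose by 3.36 and 3.36. Mfap4, a matrix protein, read 9.32, 8.09, 8.33 and 8.32 in MBs and 12.92, 13.10, 12.43 and 12.91 in GNPs and fell by 4.33 (SE 0.29, adjusted p = 1.03e-05), and the nuclear receptor Esrrg was at least 31.9-fold lower.

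The 4 tumors varied more than the 4 GNP samples. Over the 7456 genes above the limit on all 8 arrays, the median SD was 0.205 log2 units among MBs and 0.144 among GNPs, and a range over 2 log2 units was seen in 214 genes in MBs and 27 in GNPs. Ttr, the transthyretin of choroid plexus, read 14.79, 12.51, 4.14 and 14.22 in MBs and 11.88, 10.02, 10.34 and 8.71 in GNPs. Tumor 3 was under the limit and tumors 1 and 4 far above, and Ttr did not pass (adjusted p = 0.808). Krt12, a keratin of corneal epithelium, read 12.75, 12.01, 6.93 and 4.53 in MBs and was under the limit in all GNP samples (adjusted p = 0.0770). The globin Hba-a1 read 6.99, 10.15, 10.63 and 6.15 in MBs and 11.96, 11.03, 12.91 and 12.52 in GNPs, low in tumors 1 and 4, and its fall was lost with 6 arrays left out (adjusted p up to 0.0977).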

How the data were processed

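RNA of 12 samples was hybridised to Illumina MouseWG-6 v2.0 arrays. The deposited values are on the log2 scale. The authors corrected the bead signals for background with negative control probes and quantile-normalized them with neqc of limma (version not given in the sources used here). All 45281 probes were deposited. GEO's platform annotation paired 34885 with 1 symbol, 18 with several and 10378 with none, and only the first were used. Symbols were checked against a RefSeq table (34807 matched, 0 updated).

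From these log2 values a model of group means was fitted to all 12 arrays, which share 1 estimate of the spread, with lmFit and eBayes of limma 3.58.1 in R 4.3.3. P-values were adjusted over all 45281 probes by the Benjamini-Hochberg method, and genes were called at an adjusted p under 0.05. Each gene took its probe with the highest mean over 12 arrays, and genes under log2 4.5 on all 8 arrays were left out. A bound for a gene under the limit in 1 group sets the dim group at the limit. The number of arrays (4 per group) limits the precision. Probe brightness was used to choose 1 probe per gene, to rank genes seen in 1 group alone and in sums over a list, and it does not compare RNA levels between genes. The fit was tested on simulated data.

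The comparison and the gene lists were chosen with earlier results of these data known. A set of genes was marked for naming by rule, and not all of them appear in the text. It held the 15 largest rises and falls among called genes above the limit on all 8 arrays. It also held the 12 brightest genes seen in either group alone and up to 3 members per list and direction. The rest were the 10 called genes with the widest range over MBs and genes that the study names. All called members were added where 5 or fewer of a list were counted. Other members named complete the account of a list, and their choice followed a look at their values. Alternatives were the 8 arrays alone, other scalings and limits, another prior, array weights, a replicate block, the mean of all probes, a threshold of 0.01 and leaving out each array. Figures were drawn with matplotlib 3.10.9.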

Additional observations from a re-analysis of the deposited data

Results flagged for a closer look

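In some genes 1 array of a group lay far from the other 3, and the log2 signal of that array is given here. The 223 tested genes marked for naming were looked at in each group, leaving out groups with every array under the limit. Chance gives about 1 such group in 20, so many of those listed may be due to chance. The other 3 arrays were under the limit for Cdh5, Pecam1, Esm1, Plvap, Cd14, Nid2, Bmpr1b and Wnt7b in MBs. In GNPs this held for Kcna2 and Igf1. Among Ptch+/- MBs the genes with such an array were Neurod2 at 5.38, Ptpn2 at 5.28, Nfia at 11.63, Cdh5 at 5.16, Nid2 at 5.41, Cd14 at 4.70, Dlk1 at 7.40 and Bmpr1b at 5.23. Further ones in MBs were Igfbp7 at 11.85, Ankrd37 at 5.52, Smarcd3 at 5.95, Pecam1 at 4.83, Esm1 at 6.97, Plvap at 5.18, Wnt7b at 4.99 and Arid1b at 12.47. Among WT GNPs they were Psg23 at 7.43, Mbp at 12.38, Lhx5 at 8.98, Ccnd1 at 12.99, Tek at 7.02, Clic6 at 6.48, Kcna2 at 4.72, Msi1 at 5.74, Igf1 at 5.26 and Fzd10 at 5.56.

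For other genes the difference from GNPs differed between the tumor genotypes in limma at an adjusted p under 0.05. The 2 comparisons share the GNP arrays, so the value given is the log2 difference of NdpKO;Ptch+/- MBs minus Ptch+/- MBs. The strain label also differs between the tumor genotypes, so strain and the loss of Ndp cannot be told apart for these genes. NdpKO;Ptch+/- MBs were higher for Esm1 by 4.18, Grb10 by 3.70, Gli3 by 3.40, Smarcd3 by 3.23, Mfap4 by 2.40, Nid2 by 2.16, Chchd7 by 2.07, Ndn by 1.99, Emcn by 1.95, Ptpn2 by 1.65, Nefm by 1.56, Vtn by 0.90, Hes6 by 0.90 and Pgk1 by 0.66. They were lower, with a difference below 0, for Lcn2 at -6.50, Tecta at -5.75, Cd74 at -4.52, H2-Ab1 at -4.22, Slc7a3 at -3.90, H2-Eb1 at -3.67, Cp at -3.57, Cdkn2a at -3.32, C4b at -3.03, C4a at -2.97, Phlda3 at -2.63 and Cdkn2b at -2.39. Smaller negative differences were seen for Asns at -2.38, Sema3e at -2.04, Tbata at -1.54, Fzd7 at -1.06, Vwf at -0.998, Numbl at -0.92, Mcm2 at -0.77, Gars at -0.71, Slc2a3 at -0.63, Scn1a at -0.56 and Ezh2 at -0.56.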

How the results depend on the processing

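The main counts were 1794 genes higher and 1738 lower. At an adjusted p under 0.01 they were 1078 and 966. With each array left out in turn the counts were 1447 to 1703 higher and 1403 to 1599 lower, and by over 1 log2 unit 697 to 771 and 649 to 726. With the replicate number as a block they were 1603 and 1500. Deviations from group means correlated at 0.126, -0.051, 0.024 and 0.0024 for same-numbered arrays and at -0.129 to 0.072 for the others. Such correlations over 4 arrays per group cannot decide whether the numbers pair the samples. Of 216 called genes marked for naming by rule, 168 were called with each array left out. The 8 arrays alone gave 1664 and 1596, centring on 6 housekeeping genes, which shifted the difference by -0.061, gave 2112 and 1488, and an intensity trend with a robust prior gave 2032 and 1978. With the mean of all probes of a gene, Eed turned to 0.227 and Smad5 to -1.58 log2 units, since their probes differ. The difference of Plvap, near the limit and not passed, ranged from -0.0608 (without Ptch+/- MB replicate 3) to 0.270 with each array left out. Ptch1, which did not pass, ranged from -0.365 to 0.280 with each array left out and turned to 0.0357 when centred on housekeeping genes, to 0.280 and 0.0507 without Ptch+/- MB replicates 2 and 4, and to 0.0700 and 0.0277 without WT GNP replicates 1 and 2. Of the other probes of called genes, 1087 of 1998 had the same call, 845 did not pass and 66 had the opposite call. Causes were not tested. Low signal limits the dim genes, for which 9529 genes have no measured difference.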

Other observations

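Further lists are given here, to be read beside the shares over all genes (18.8% higher and 18.2% lower). Of 18 targets of p53 tested, 4 rose and 2 fell, of 12 heat shock genes 1 rose and 3 fell, and of 18 glycolysis and hypoxia genes 2 rose and 4 fell. Phlda3, a p53 target that restrains Akt, read 7.28, 7.74, 6.71 and 7.67 in MBs and 4.18, 4.25, 4.34 and 4.17 in GNPs, at least 7.20-fold higher in MBs (adjusted p = 1.32e-05), with a mean of 4.72 in NdpKO;Ptch+/- MBs (adjusted p = 0.000810). Mdm2, the ubiquitin ligase of p53, fell by 0.46 (SE 0.06, adjusted p = 0.000931), and Plk2, a kinase among the same targets, fell by 2.97 (SE 0.42, adjusted p = 0.00115). Cryab, a small heat shock protein, read 6.25, 6.96, 7.02 and 8.42 in MBs and 4.23, 4.26, 4.34 and 4.20 in GNPs, at least 6.33-fold higher (adjusted p = 0.00697). Ndrg1, which hypoxia induces in many cells, fell by 2.41 (SE 0.23, adjusted p = 9.32e-05), and Ldha and Vegfa did not pass.

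Of 27 chromatin genes tested 5 rose and 5 fell (18.5% each, near the shares over all genes). With each array left out, 4 of the rises and 2 of the falls held. The falls of Eed, Actl6a and Actl6b held with 0, 3 and 2 of the 8 arrays left out in turn. The rise of Phf10 held with 2 of them, and Dnmt1 and Arid1b also rose. Another Actl6a probe was higher in MBs (difference 0.44, adjusted p = 0.0238 in limma). Ezh2, the methyltransferase of Polycomb complex 2, read 12.53, 12.27, 12.48 and 12.21 in MBs and 11.78, 11.78, 11.70 and 11.52 in GNPs and rose by 0.67 (SE 0.11, adjusted p = 0.00251). Cbx2 and Cbx8, alternative subunits of Polycomb complex 1, went opposite ways, with Cbx2 up by 1.05 and a fall of Cbx8 (-1.83, SE 0.19, adjusted p = 0.000191). Smarcd3, a subunit of neural chromatin remodelling complexes, read 4.70, 5.95, 4.46 and 4.69 in MBs and 7.48, 7.71, 7.33 and 7.78 in GNPs, with a mean of 8.18 in NdpKO;Ptch+/- MBs (adjusted p = 0.00276). Of 25 receptors and channels 4 rose and 2 fell, both below the shares over all genes. The rises included the glutamate receptor subunits Gria2 (0.81), Grin3a (1.04) and Grik2 (0.81), and the dim channel gene Kcnj3 was among the falls (adjusted p = 0.000232).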
